A study of Mus musculus with 9 samples.

Results

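The extracellular matrix of the lung is the mesh of collagens, elastic fibres, glycoproteins and proteoglycans that holds the airways and alveoli open. Fibroblasts secrete most of its fibrillar collagen, endothelial and epithelial cells add to the basement membranes below them, and lysyl oxidases join the chains by covalent cross-links. Matrix metalloproteinases cleave the finished fibres, tissue inhibitors of metalloproteinases (TIMPs) hold those enzymes in check, and transforming growth factor beta (TGF-beta) is the signal best known for raising matrix production. Subepithelial collagen deposition is a known feature of the asthmatic airway.

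The genes described here are 44 collagens and matrix remodelling genes out of 21884 genes in the expression table, chosen by name. They are 6 fibrillar collagens, 7 basement membrane collagens, 8 other collagens, 11 glycoproteins, proteoglycans and elastic fibre genes, 9 enzymes and inhibitors, and 3 TGF-beta ligands. Every one was found in the table, and 44 of 44 passed the filter on low values (FPKM of at least 0.5 in at least 3 of 9 libraries). FPKM counts fragments relative to the length of the gene and to the total of the library, so it is a share of a library and not an amount per lung.

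Whole lung mRNA was sequenced from male BALB/c mice, an inbred strain widely used for allergic airway models, with 3 libraries in each of 3 groups. OVA+PM2.5 mice received ovalbumin (OVA, a chicken egg protein used as an allergen) together with PM2.5, airborne particles of 2.5 µm or less, given daily as nasal drops from 7 days before the first injection. OVA mice received the allergen alone: 50 µg OVA with 1 mg aluminium hydroxide, an adjuvant, injected on days 0, 7 and 14, and then 400 µg OVA into the nose daily from day 21 to day 27. Naive mice received saline by the same routes. Mice were 6 weeks old when housed and lungs were taken on day 28. The labels name no vehicle drops for OVA mice over the days of particle dosing. They number the samples and say nothing of litters or cages, so the p-values reflect only how these libraries spread.

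The libraries held 12142765 to 15748051 fragments assigned to genes, as recovered from the steps between FPKM values, and relative depth ran from 0.771 to 1. The 3 OVA+PM2.5 libraries stood apart from the rest and from each other in the tissues they contained. Summed FPKM of 10 skeletal muscle genes was 14494, 70.0 and 262 in OVA+PM2.5 replicates 1, 2 and 3, against 0.863 to 5.03 in OVA and 1.06 to 6.95 in Naive. Summed FPKM of 9 cardiac genes was 293, 5562 and 210 in OVA+PM2.5, against 39.7 to 322 in OVA and 43.7 to 286 in Naive. Replicates 1 and 3 thus lay within the OVA range. For 8 adipose genes the sums were 696, 14.9 and 3695 in OVA+PM2.5, against 6.18 to 11.5 in OVA and 0.917 to 154 in Naive. Markers of lung epithelium were lowest in OVA+PM2.5 replicates 1 and 3. The 8 alveolar type 2 genes summed to 150, 8503 and 696 in OVA+PM2.5, against 4683 to 13910 in OVA and 13211 to 23656 in Naive. For 6 club cell genes the sums were 79.4, 85126 and 6479 in OVA+PM2.5, against 81441 to 198873 in OVA and 43737 to 79448 in Naive. Replicate 2 lay within the OVA range for both, and above the Naive range for the club cell genes. Muscle actin Acta1 was listed at 0 in OVA replicates 1 and 3 and Naive replicate 2, and the brown fat gene Ucp1 at 0 in every OVA library. Skeletal muscle, heart and fat have matrix genes of their own, and the part of those tissues in the values below was not tested. Naive replicate 1 was high in thymus markers, whose 7 genes summed to 318 FPKM, against 5.92 and 8.84 FPKM in Naive replicates 2 and 3. The thymus sums were 2.87 to 25.7 FPKM in OVA+PM2.5 and 5.29 to 8.16 FPKM in OVA, and the part of thymus in the Naive values was not tested. In bulk lung, fewer cells of a type and less RNA per cell cannot be told apart.

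Promoter sequence is shown for the 5 genes that passed the test below and for Mmp12, the protease gene with the highest ratio of group means. RefSeq windows on build GRCm38.p6 were matched for 30 of the 44 genes, and the 150 bases before each start were searched on both strands for the TATA box, written TATAAA, for the CCAAT box, written as in its name, for the GC box, written GGGCGG, and for the AP-1 site, written TGANTCA. Sequences read 5′ to 3′ on the gene's strand, and capitals mark a match to 1 of those motifs in either direction.
Sparc, chr11:55420081-55420230, minus strand: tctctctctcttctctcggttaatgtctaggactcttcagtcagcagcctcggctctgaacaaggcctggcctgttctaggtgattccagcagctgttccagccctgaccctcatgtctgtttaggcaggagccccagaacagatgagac
Postn, chr3:54360957-54361106, plus strand: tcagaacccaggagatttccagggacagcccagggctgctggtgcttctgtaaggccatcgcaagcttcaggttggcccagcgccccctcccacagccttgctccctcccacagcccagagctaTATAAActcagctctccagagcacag
Tgfb1, chr7:25686852-25687001, plus strand: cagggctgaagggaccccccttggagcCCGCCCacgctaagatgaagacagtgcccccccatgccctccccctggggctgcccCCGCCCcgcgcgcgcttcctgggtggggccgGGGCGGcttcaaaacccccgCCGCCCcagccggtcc
Col13a1, chr10:61979109-61979258, minus strand: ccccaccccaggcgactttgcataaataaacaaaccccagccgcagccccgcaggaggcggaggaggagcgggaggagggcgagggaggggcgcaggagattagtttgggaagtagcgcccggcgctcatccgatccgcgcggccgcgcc
Col16a1, chr4:130047690-130047839, plus strand: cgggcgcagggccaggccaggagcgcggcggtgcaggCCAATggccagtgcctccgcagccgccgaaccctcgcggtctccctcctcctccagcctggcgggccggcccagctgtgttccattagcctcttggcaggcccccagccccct
Mmp12, chr9:7347224-7347373, plus strand: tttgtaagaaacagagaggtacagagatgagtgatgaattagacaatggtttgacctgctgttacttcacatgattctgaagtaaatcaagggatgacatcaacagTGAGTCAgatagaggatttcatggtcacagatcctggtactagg

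No motif was shared by these 6 windows. Tgfb1 had 4 GC boxes, Postn a TATA box 26 bases before its start, Col16a1 a CCAAT box 113 bases before it and Mmp12 an AP-1 site 44 bases before it, while the Sparc and Col13a1 windows held none of the 4 motifs. Postn and Mmp12 each have 2 listed starts, and the window with a match was chosen for display after the search. Over 32851 mouse promoter windows, 7.57% held the TATA box, 24.5% the CCAAT box, 28.6% the GC box and 4.24% the AP-1 site, and of the 38 windows of the matrix genes 4, 9, 14 and 2 held them (10.5%, 23.7%, 36.8% and 5.26%). Col4a1 and Col4a2, which encode the main chains of type IV collagen, are transcribed away from each other, and their listed transcripts overlap by 22 bases at the 5′ ends. That stretch, which holds a GC box and lies outside the windows searched, is shown because the levels of both genes are set side by side below.
Col4a1 and Col4a2, chr8:11312805-11312826, plus strand: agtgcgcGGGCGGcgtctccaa

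In OVA+PM2.5 lungs set against Naive lungs, 5 of the 44 matrix genes fell and 0 rose. The genes that fell were Sparc, Postn, Tgfb1, Col13a1 and Col16a1, at an adjusted p under 0.05 in a limma fit of all 9 libraries with Benjamini-Hochberg adjustment over 12982 genes. That is 11.4% of the matrix genes, against 5.59% of all genes tested lower and 1.53% higher in the same comparison. The calls are close to the threshold, at adjusted p of 0.0293 to 0.0468 by limma. A fit of the 6 compared libraries alone called 0 of the matrix genes, as it called 0 of all genes. Leaving out OVA+PM2.5 replicate 1 gave 0, where 77 of all genes were called higher and 66 lower. Leaving out replicate 2 gave 17 lower and 2 higher (27.4% and 5.35% of all genes). Against OVA lungs, 0 of 44 passed in OVA+PM2.5, where 0.193% of all genes were called higher and 0.0231% lower, and leaving out OVA+PM2.5 replicate 2 gave 11 lower and 3 higher (20.5% and 4.88% of all genes). In OVA against Naive lungs 0 of 44 passed in the 9-library fit, where 0% of all genes were called higher and 0.0154% lower. A fit of the 6 OVA and Naive libraries alone called 6 matrix genes lower (13.6%), against 3.91% of all genes lower and 2.98% higher. At an unadjusted p under 0.05 the matrix genes counted 5 higher and 8 lower in OVA+PM2.5 against OVA (6.64% and 20.3% of all genes), 4 higher and 20 lower in OVA+PM2.5 against Naive (6.09% and 28.5%), and 0 higher and 9 lower in OVA against Naive (4.41% and 6.94%).

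**Figure D1:**
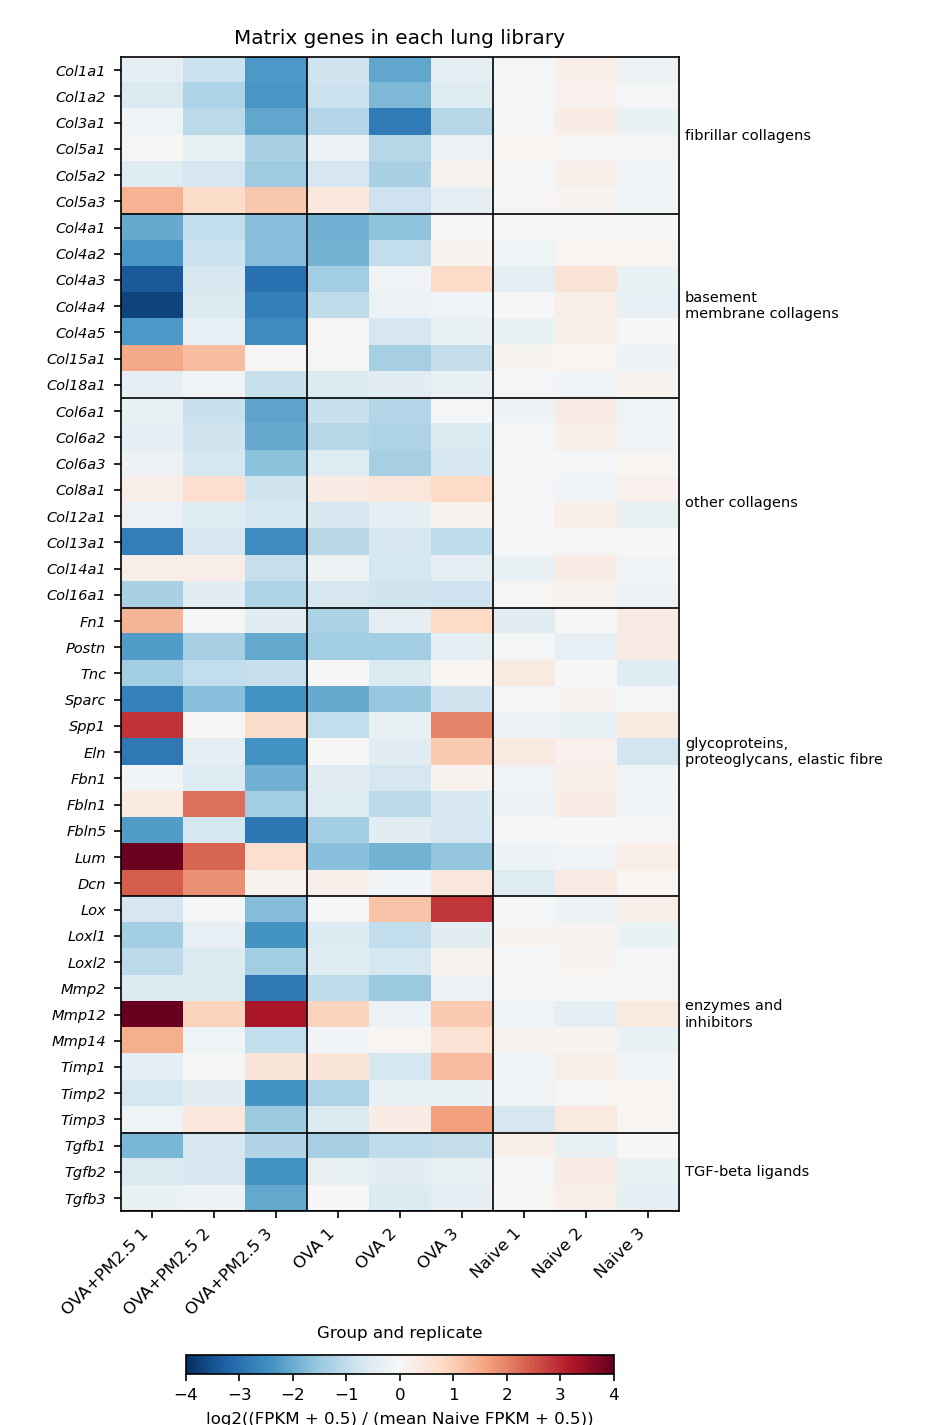
Each row is a matrix gene and each column a lung library, and colour gives log2((FPKM + 0.5) / (mean Naive FPKM + 0.5)) between -4 and 4, with values beyond shown at the end colour. Naive columns are pale throughout, most collagens are blue in OVA+PM2.5 replicate 3, and Lum and Mmp12 are the darkest red cells, in OVA+PM2.5 replicate 1.

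The median log2 fold change of the matrix genes was -0.99 in OVA+PM2.5 against Naive, where the median over all genes tested was -0.33. It was -0.35 in OVA+PM2.5 against OVA, against -0.23 over all genes, and -0.48 in OVA against Naive, against -0.11. The median in OVA+PM2.5 against OVA rested on single libraries: it was 0.01 without OVA+PM2.5 replicate 3, -0.05 without OVA replicate 3 and 0.12 with only OVA+PM2.5 replicate 2 kept. When FPKM was rescaled to a common sum, the medians of all genes became -0.05 in OVA+PM2.5 against OVA, -0.49 in OVA+PM2.5 against Naive and -0.44 in OVA against Naive, and those of the matrix genes -0.15, -1.15 and -0.84 in the same order. With median-ratio scaling they were -0.02, -0.04 and -0.01 for all genes and -0.11, -0.69 and -0.37 for the matrix genes. Groups did not overlap for 27 matrix genes in OVA+PM2.5 against Naive. Of these, 24 were lower (54.5%, against 33.2% of all genes) and 3 higher, Lum, Col5a3 and Mmp12 (6.82%, against 6.83%). In OVA+PM2.5 against OVA only Lum and Col5a3 lay wholly above (4.55%, against 6.86%), and Tnc, Lox and Tgfb2 wholly below (6.82%, against 20.1%). In OVA against Naive 19 lay wholly below (43.2%, against 22.4%) and 1, Col8a1, wholly above (2.27%, against 11.2%).

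**Figure D2:**
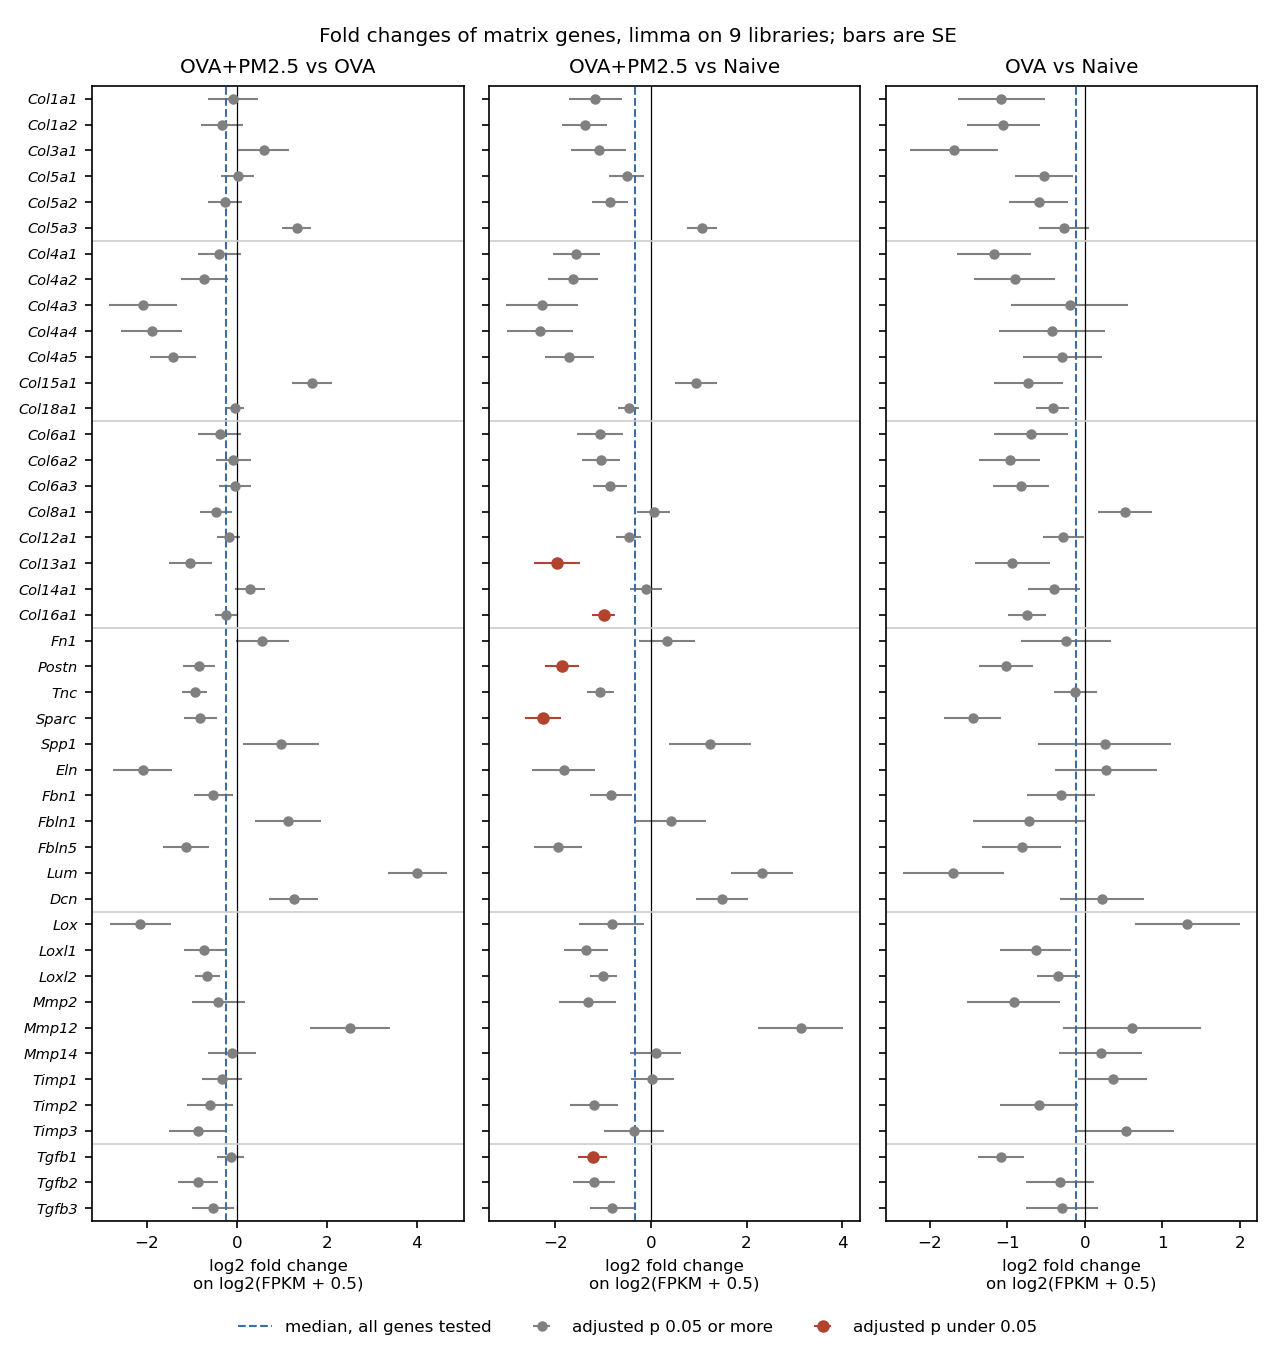
Points are log2 fold changes of each matrix gene on the log2(FPKM + 0.5) scale in 3 comparisons, bars are SE from limma on 9 libraries, red marks adjusted p under 0.05 and the dashed line is the median of all genes tested. The 5 red points, Sparc, Postn, Tgfb1, Col13a1 and Col16a1, are all below 0 in the OVA+PM2.5 against Naive panel.

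Type I and type III collagens are the main fibres of the lung interstitium. Col1a1, the alpha 1 chain of type I collagen, had 43.1, 30.1 and 10.9 FPKM in OVA+PM2.5 replicates 1, 2 and 3, against 31.8, 12.7 and 42.3 FPKM in OVA and 51.9, 66.0 and 48.2 FPKM in Naive. Both the OVA+PM2.5 and the OVA libraries lay below all Naive libraries, and they overlapped each other. The means were 28.1 ± 16.2 FPKM in OVA+PM2.5, 28.9 ± 15 FPKM in OVA and 55.4 ± 9.35 FPKM in Naive (SD, n = 3 each). By limma, Col1a1 differed by -1.16 on the log2 scale (SE 0.56, adjusted p 0.171) in OVA+PM2.5 against Naive and by -1.07 (SE 0.56, adjusted p 0.505) in OVA against Naive, so neither passed.

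Col1a2, the partner chain, had 22.9, 14.1 and 6.35 FPKM in OVA+PM2.5, against 18.6, 9.43 and 24.1 FPKM in OVA and 32.2, 38.2 and 32.2 FPKM in Naive. It showed the same order of libraries within each group as Col1a1, apart from a tie between Naive replicates 1 and 3 at this rounding. Col3a1, which encodes type III collagen, had 49.2, 26.2 and 12.6 FPKM in OVA+PM2.5, against 24.3, 7.40 and 25.1 FPKM in OVA and 52.1, 67.9 and 46.2 FPKM in Naive. Its log2 fold change in OVA against Naive, -1.69 (SE 0.57, adjusted p 0.343), was the lowest of the fibrillar collagens in that comparison, and the 2 groups did not overlap. In OVA+PM2.5 against Naive it was -1.09 (SE 0.57, adjusted p 0.200), and replicate 1 lay within the Naive range.

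Type V collagen helps to start fibrils and sets their diameter. Col5a1 was at 1.92 to 5.73 FPKM in OVA+PM2.5, 2.23 to 4.67 FPKM in OVA and 5.19 to 5.76 FPKM in Naive, and Col5a2 at 2.87 to 5.93 FPKM, 3.22 to 9.54 FPKM and 7.64 to 9.99 FPKM in the same groups. Col5a3, the least widely expressed chain of type V collagen, ran against the others. It had 2.61, 1.45 and 1.96 FPKM in OVA+PM2.5, against 1.08, 0.158 and 0.397 FPKM in OVA and 0.728, 0.773 and 0.537 FPKM in Naive. All 3 OVA+PM2.5 libraries were above every other library, from 221 to 367 fragments against 25 to 156 in the rest. Its log2 fold change was 1.33 (SE 0.32, adjusted p 0.0842) in OVA+PM2.5 against OVA and 1.07 (SE 0.32, adjusted p 0.0661) in OVA+PM2.5 against Naive. Neither passed, and both would with OVA+PM2.5 replicate 2 left out.

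The ratio of Col1a1 to Col1a2 FPKM within a library was 1.88, 2.14 and 1.72 in OVA+PM2.5, 1.71, 1.34 and 1.76 in OVA and 1.61, 1.73 and 1.5 in Naive. It stayed within a narrow range while Col1a1 itself ranged 6.03-fold across the 9 libraries. The ratio of Col3a1 to Col1a1, chosen after the values had been seen, was 1.14, 0.868 and 1.15 in OVA+PM2.5, 0.765, 0.584 and 0.593 in OVA and 1.00, 1.03 and 0.958 in Naive. All 3 OVA libraries thus had less Col3a1 per Col1a1 than any OVA+PM2.5 or Naive library. Gene lengths cancel when such a ratio is compared between libraries, but its level depends on the lengths the authors used.

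**Figure D3:**
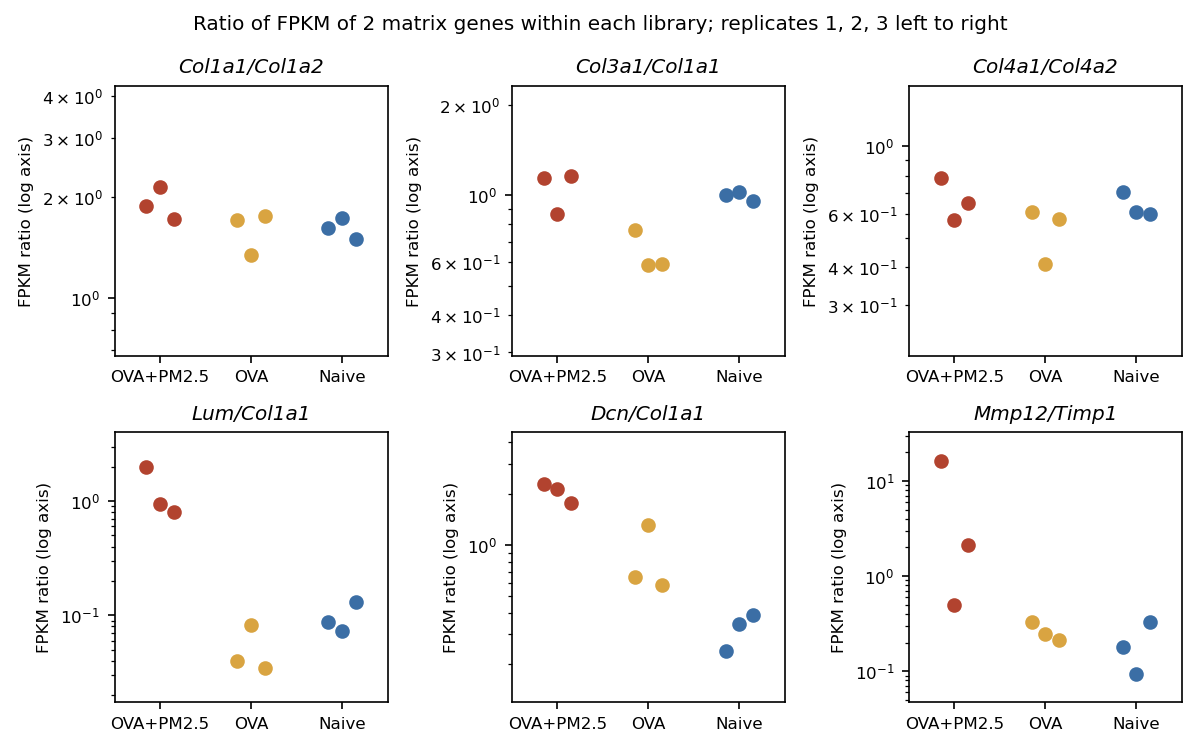
Each point is the ratio of FPKM of 2 matrix genes in 1 library on a log axis, with groups in the order OVA+PM2.5, OVA, Naive and replicates 1, 2 and 3 from left to right. Col1a1/Col1a2 (1.34 to 2.14) and Col4a1/Col4a2 (0.409 to 0.787) overlap between groups, whereas Lum/Col1a1 is 0.796 to 1.99 in OVA+PM2.5 and at most 0.131 in the other 6 libraries.

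Type IV collagen is the sheet-forming collagen of basement membranes. Its Col4a1 chain was nearly the same in the 3 Naive libraries, at 42.4 ± 0.708 FPKM, and lower and more spread in the treated groups, at 14.8 ± 5.65 FPKM in OVA+PM2.5 and 22.5 ± 17.8 FPKM in OVA (SD, n = 3 each). By library it had 10.2, 21.1 and 13 FPKM in OVA+PM2.5, against 10.8, 13.7 and 43.0 FPKM in OVA and 41.7, 43.1 and 42.6 FPKM in Naive. OVA replicate 3 lay in the Naive range, and the other 2 OVA libraries lay in the OVA+PM2.5 range. For Col4a1 the log2 fold change was -1.55 (SE 0.48, adjusted p 0.0696) in OVA+PM2.5 against Naive and -1.17 (SE 0.48, adjusted p 0.409) in OVA against Naive.

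Col4a2, whose start lies beside that of Col4a1 as shown above, had 12.9, 36.8 and 20.0 FPKM in OVA+PM2.5, against 17.7, 33.4 and 74.8 FPKM in OVA and 59.2, 71.0 and 71.0 FPKM in Naive. It had the highest mean FPKM of the basement membrane collagens, and its OVA+PM2.5 libraries did not overlap the Naive ones. The ratio of Col4a1 to Col4a2 was 0.787, 0.573 and 0.650 in OVA+PM2.5, 0.609, 0.409 and 0.575 in OVA and 0.704, 0.606 and 0.600 in Naive, so the 2 chains differed together from library to library.

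The Col4a3, Col4a4 and Col4a5 chains form the type IV collagen of the alveolar and glomerular basement membrane, which is made in the lung largely by alveolar type 1 cells. Col4a3 had 0.190, 4.06 and 0.396 FPKM in OVA+PM2.5, against 2.22, 6.02 and 11.6 FPKM in OVA and 4.89, 9.63 and 5.38 FPKM in Naive. Col4a4 had 0.471, 8.06 and 1.42 FPKM in OVA+PM2.5, against 5.79, 10.4 and 11.4 FPKM in OVA and 12.1, 14.9 and 9.60 FPKM in Naive. Col4a5 had 0.875, 4.78 and 0.665 FPKM in OVA+PM2.5, against 6.44, 3.74 and 4.95 FPKM in OVA and 5.12, 7.20 and 6.26 FPKM in Naive. For all 3 chains, OVA+PM2.5 replicates 1 and 3 were the lowest libraries and replicate 2 lay within the OVA range. The log2 fold changes in OVA+PM2.5 against Naive were -2.28 (SE 0.75, adjusted p 0.0789) for Col4a3, -2.32 (SE 0.68, adjusted p 0.0629) for Col4a4 and -1.70 (SE 0.51, adjusted p 0.0660) for Col4a5. Markers of alveolar type 1 cells were ordered in the same way, their 6 genes summing to 71.6, 213 and 74.8 FPKM in OVA+PM2.5 replicates 1, 2 and 3, against 135 to 354 FPKM in OVA and 378 to 441.2 FPKM in Naive. Their part in the type IV values was not tested.

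The multiplexins, collagens XV and XVIII, link basement membranes to the interstitium. Col15a1 had 4.97, 3.97 and 1.47 FPKM in OVA+PM2.5, against 1.48, 0.261 and 0.491 FPKM in OVA and 1.56, 1.51 and 1.15 FPKM in Naive. Its log2 fold change of 1.67 (SE 0.44, adjusted p 0.0875) in OVA+PM2.5 against OVA did not pass, and OVA+PM2.5 replicate 3 was just under OVA replicate 1. It passed with replicate 3 left out. Col18a1 was at 1.65 to 3.09 FPKM in OVA+PM2.5, 2.20 to 2.73 FPKM in OVA and 3.17 to 3.81 FPKM in Naive, the narrowest range among the 44 genes relative to its level, at 2.31-fold from lowest to highest library.

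Of the other collagens, Col13a1 and Col16a1 fell in OVA+PM2.5 against Naive. Col13a1 encodes a transmembrane collagen found at cell contacts. It had 0.0176, 1.77 and 0.127 FPKM in OVA+PM2.5, against 1.13, 1.73 and 1.24 FPKM in OVA and 3.07, 2.94 and 3.09 FPKM in Naive. Naive libraries were tightly grouped at 3.04 ± 0.0815 FPKM (SD, n = 3), and both other groups lay wholly below them. OVA+PM2.5 replicate 1 rested on 4 fragments and replicate 3 on 25, against 436 in replicate 2 and 701 to 791 in Naive. The log2 fold change was -1.97 (SE 0.48, adjusted p 0.0467) in OVA+PM2.5 against Naive, with 3 of 3 libraries below the Naive range. With only OVA+PM2.5 replicate 2 kept, it was -0.64 (adjusted p 0.230, limma with the spread taken from the other groups).

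Col16a1 encodes a small fibril-associated collagen. It had 0.498, 1.26 and 0.527 FPKM in OVA+PM2.5, against 1.07, 0.890 and 0.871 FPKM in OVA and 1.99, 2.17 and 1.63 FPKM in Naive. Both treated groups lay below the Naive range and overlapped each other. Col16a1 had a log2 fold change of -0.99 (SE 0.24, adjusted p 0.0468) in OVA+PM2.5 against Naive and -0.75 (SE 0.24, adjusted p 0.333) in OVA against Naive.

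Type VI collagen forms beaded filaments around cells. Col6a1 had the highest mean FPKM of this group, with 44.6, 28.4 and 12.0 FPKM in OVA+PM2.5, against 28.3, 23.2 and 51.3 FPKM in OVA and 45.7, 66.2 and 47.6 FPKM in Naive. Col6a2 had 12.7, 9.23 and 3.72 FPKM in OVA+PM2.5, against 7.25, 6.69 and 10.9 FPKM in OVA and 15.4, 18.9 and 15 FPKM in Naive. Col6a3 was at 0.813 to 2.97 FPKM in OVA+PM2.5, 1.12 to 2.39 FPKM in OVA and 3.40 to 3.80 FPKM in Naive. All 3 chains were highest in OVA+PM2.5 replicate 1 and lowest in replicate 3 within that group, as were Col1a1, Col1a2, Col3a1 and Col5a1. Col6a2 had a log2 fold change of -0.97 in OVA against Naive (SE 0.40, adjusted p 0.404), which passed in the 6-library fit (adjusted p 0.0385).

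Col8a1, a short-chain collagen of vessel walls, was the only matrix gene whose OVA libraries lay wholly above the Naive ones, with 1.92, 2.74 and 0.666 FPKM in OVA+PM2.5, 1.97, 2.26 and 2.98 FPKM in OVA and 1.45, 1.35 and 1.75 FPKM in Naive. Its log2 fold change in OVA against Naive was 0.52 (SE 0.35, adjusted p 0.593), and its OVA+PM2.5 libraries overlapped both other groups. The fibril-associated Col14a1 and Col12a1 overlapped in all 3 comparisons, Col14a1 at 1.40 to 3.85 FPKM in OVA+PM2.5, 1.71 to 2.62 FPKM in OVA and 2.48 to 3.92 FPKM in Naive, and Col12a1 at 0.234 to 0.527 FPKM, 0.264 to 0.831 FPKM and 0.470 to 0.906 FPKM in the same groups. Over all 21 collagens the summed FPKM was 229, 213 and 94.8 in OVA+PM2.5, against 177, 143 and 327 in OVA and 353, 439 and 356 in Naive.

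Sparc showed the smallest p of the 44 genes in OVA+PM2.5 against Naive. SPARC is a collagen-binding matricellular glycoprotein that assists collagen processing and basement membrane assembly. It had 21.9, 45.8 and 26.8 FPKM in OVA+PM2.5, against 35.3, 50.3 and 83.6 FPKM in OVA and 139, 158 and 140 FPKM in Naive. Every library of both treated groups was below every Naive library, and the lowest Naive library was well above the highest OVA library. The ratio of means was 0.216 for OVA+PM2.5 over Naive and 0.387 for OVA over Naive. Sparc had a log2 fold change of -2.26 (SE 0.37, adjusted p 0.0293) in OVA+PM2.5 against Naive and -1.45 (SE 0.37, adjusted p 0.250) in OVA against Naive, where it passed in the 6-library fit (adjusted p 0.0359). Against OVA, OVA+PM2.5 gave -0.81 (SE 0.37, adjusted p 0.198). The ratio of Sparc to Col1a1, chosen after the values had been seen, was 0.509, 1.52 and 2.45 in OVA+PM2.5, 1.11, 3.97 and 1.98 in OVA and 2.68, 2.39 and 2.91 in Naive.

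Postn encodes periostin, a matricellular protein known in human asthma as a product of epithelium exposed to interleukin 13. It had 3.25, 6.55 and 3.74 FPKM in OVA+PM2.5, against 6.38, 6.31 and 13 FPKM in OVA and 16.6, 13.5 and 21.6 FPKM in Naive. Both treated groups lay wholly below Naive. The log2 fold change was -1.85 (SE 0.35, adjusted p 0.0340) in OVA+PM2.5 against Naive and -1.02 (SE 0.35, adjusted p 0.353) in OVA against Naive.

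Tnc encodes tenascin C, a glycoprotein made at sites of injury. It had 0.146, 0.358 and 0.388 FPKM in OVA+PM2.5, against 1.21, 0.629 and 1.28 FPKM in OVA and 1.67, 1.19 and 0.707 FPKM in Naive. OVA+PM2.5 lay below both other groups, on 49 to 130 fragments against 237 to 620, with log2 fold changes of -0.93 (SE 0.28, adjusted p 0.10) against OVA and -1.06 (SE 0.28, adjusted p 0.0535) against Naive. Fn1, which encodes fibronectin, had 8.10, 2.75 and 1.97 FPKM in OVA+PM2.5, against 0.885, 2.11 and 5.32 FPKM in OVA and 1.94, 2.88 and 3.70 FPKM in Naive. Spp1, which encodes osteopontin, a secreted phosphoprotein of activated macrophages, had 22.4, 2.70 and 4.56 FPKM in OVA+PM2.5, against 1.05, 2.06 and 11.5 FPKM in OVA and 2.22, 2.10 and 3.48 FPKM in Naive. For both genes 1 library carried the treated group's mean, replicate 1 in OVA+PM2.5 and replicate 3 in OVA, and no comparison passed (smallest adjusted p 0.549 for Fn1 and 0.319 for Spp1).

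**Figure D4:**
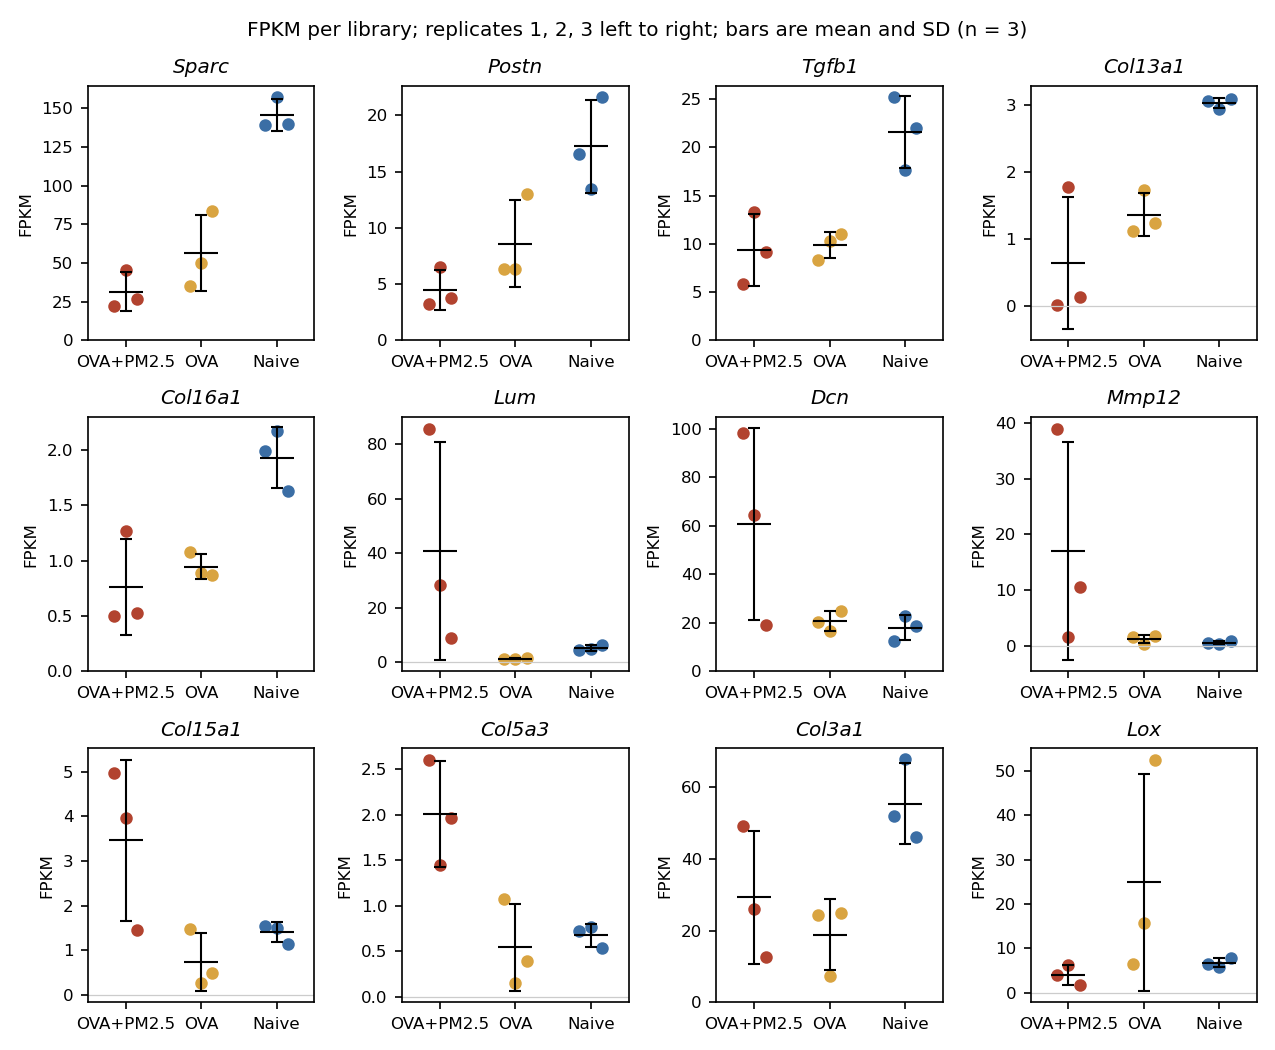
Points are FPKM of 12 matrix genes per library in OVA+PM2.5, OVA and Naive, with replicates 1, 2 and 3 from left to right and bars for mean and SD (n = 3). Sparc, Postn, Tgfb1, Col13a1 and Col16a1 have every Naive library above every OVA+PM2.5 library, while Lum and Mmp12 are highest in OVA+PM2.5 replicate 1, at 85.8 and 38.9 FPKM.

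Lumican and decorin are small leucine-rich proteoglycans that bind collagen fibrils and control their spacing. Lum had 85.8, 28.2 and 8.70 FPKM in OVA+PM2.5, against 1.28, 1.04 and 1.46 FPKM in OVA and 4.49, 4.84 and 6.32 FPKM in Naive. The 3 groups did not overlap in any pairing: OVA libraries were the lowest, Naive libraries above them and OVA+PM2.5 libraries the highest, although within OVA+PM2.5 the values ranged widely. Lum had a log2 fold change of 4.02 (SE 0.66, adjusted p 0.0518) in OVA+PM2.5 against OVA, just outside the threshold, and 2.32 (SE 0.66, adjusted p 0.0580) in OVA+PM2.5 against Naive. With any 1 of the 3 OVA+PM2.5 libraries left out, Lum passed against OVA, at adjusted p 0.0414 without replicate 1, 0.00830 without replicate 2 and 0.00340 without replicate 3. It did not pass with any 1 OVA or Naive library left out (adjusted p 0.117 to 0.227), with the replicate number as a block (0.0951) or in the fit of the 6 compared libraries (0.239). In OVA against Naive the log2 fold change was -1.69 (SE 0.66, adjusted p 0.382) in the 9-library fit, and it passed in the 6-library fit (adjusted p 0.00927), on 40 to 52 fragments in OVA and 170 to 244 in Naive.

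Dcn had 98.3, 64.6 and 19.2 FPKM in OVA+PM2.5, against 20.6, 16.6 and 24.8 FPKM in OVA and 12.4, 22.6 and 18.8 FPKM in Naive. Replicates 1 and 2 of OVA+PM2.5 were the highest libraries and replicate 3 lay among the others. The log2 fold changes were 1.27 (SE 0.54, adjusted p 0.172) against OVA and 1.49 (SE 0.54, adjusted p 0.0947) against Naive. Neither passed, and both did with replicate 3, the lowest OVA+PM2.5 library for Dcn, left out. Neither passed with replicate 1 or replicate 2 left out. The choice of ratios to Col1a1 was made with the values known. The ratio of Dcn to Col1a1 was 2.28, 2.14 and 1.76 in OVA+PM2.5, 0.647, 1.31 and 0.586 in OVA and 0.239, 0.343 and 0.389 in Naive, with no overlap between the 3 groups. The ratio of Lum to Col1a1 was 1.99, 0.937 and 0.796 in OVA+PM2.5, 0.0402, 0.0821 and 0.0345 in OVA and 0.0866, 0.0734 and 0.131 in Naive, where OVA and Naive overlapped. In OVA+PM2.5 both ratios were above every other library, in replicate 1 with its skeletal muscle transcripts, in replicate 2 with its cardiac transcripts and in replicate 3 with its adipose transcripts. The part of those tissues in the ratios was not tested.

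Elastic fibres give the lung its recoil. Eln, which encodes elastin, had 2.95, 18.7 and 4.19 FPKM in OVA+PM2.5, against 24.3, 17.9 and 51.7 FPKM in OVA and 31.9, 27.6 and 14.4 FPKM in Naive. OVA+PM2.5 replicates 1 and 3 were the lowest libraries, and replicate 2 lay within both other groups. The log2 fold change was -2.09 (SE 0.66, adjusted p 0.106) in OVA+PM2.5 against OVA and -1.82 (SE 0.66, adjusted p 0.0952) in OVA+PM2.5 against Naive. Fbln5, which encodes fibulin 5, needed to assemble elastic fibres, had 3.18, 10.3 and 1.82 FPKM in OVA+PM2.5, against 6.30, 12.4 and 10.5 FPKM in OVA and 16.1, 17.1 and 17.4 FPKM in Naive. Its log2 fold change of -1.95 (SE 0.50, adjusted p 0.0520) in OVA+PM2.5 against Naive was just outside the threshold. Fbn1, which encodes the microfibril protein fibrillin 1, was at 1.19 to 5.45 FPKM in OVA+PM2.5, 3.48 to 6.47 FPKM in OVA and 5.17 to 7.07 FPKM in Naive. Fbln1, which encodes fibulin 1, had 10.6, 38.4 and 2.73 FPKM in OVA+PM2.5, against 5.47, 3.51 and 5.01 FPKM in OVA and 6.72, 9.89 and 7.27 FPKM in Naive. Its highest value was in OVA+PM2.5 replicate 2, the library with 5562 summed FPKM of cardiac genes.

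Lysyl oxidases cross-link collagen and elastin. Lox had 4.07, 6.32 and 1.71 FPKM in OVA+PM2.5, against 6.40, 15.6 and 52.5 FPKM in OVA and 6.56, 5.88 and 7.87 FPKM in Naive. OVA+PM2.5 lay wholly below OVA, by a small margin between OVA+PM2.5 replicate 2 and OVA replicate 1. The log2 fold change was -2.14 (SE 0.68, adjusted p 0.106) in OVA+PM2.5 against OVA and 1.32 (SE 0.68, adjusted p 0.504) in OVA against Naive, where replicate 3 held most of the OVA mean. Loxl1, required for elastic fibre upkeep, had 15.7, 33.2 and 7.48 FPKM in OVA+PM2.5, against 28.4, 20.9 and 30.9 FPKM in OVA and 44.9, 45.0 and 34.6 FPKM in Naive. Loxl2, which cross-links type IV collagen, had 1.67, 2.54 and 1.21 FPKM in OVA+PM2.5, against 2.73, 2.23 and 4.48 FPKM in OVA and 3.76, 4.30 and 3.86 FPKM in Naive. Both had OVA+PM2.5 wholly below Naive, with log2 fold changes of -1.35 (SE 0.46, adjusted p 0.0837) for Loxl1 and -1.0 (SE 0.28, adjusted p 0.0576) for Loxl2.

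Mmp12, the macrophage metalloelastase, had 38.9, 1.63 and 10.6 FPKM in OVA+PM2.5, against 1.62, 0.469 and 1.86 FPKM in OVA and 0.544, 0.377 and 0.997 FPKM in Naive. All OVA+PM2.5 libraries were above the Naive range, and replicate 2 lay within the OVA range. The ratio of means was 26.7 for OVA+PM2.5 over Naive, with values that ranged from 334 to 7390 fragments within OVA+PM2.5. For Mmp12 the log2 fold change was 3.13 (SE 0.89, adjusted p 0.0587) in OVA+PM2.5 against Naive and 2.53 (SE 0.89, adjusted p 0.125) in OVA+PM2.5 against OVA. It passed against both with replicate 2, its lowest OVA+PM2.5 library, left out, and passed against Naive when FPKM was rescaled to a common sum. It passed in neither comparison without replicate 1, without replicate 3 or with median-ratio scaling. The 11 macrophage markers summed to 352, 259 and 873 FPKM in OVA+PM2.5, against 127 to 455 FPKM in OVA and 129 to 203 FPKM in Naive. They were mixed: of 10 tested, 6 had a positive and 4 a negative log2 fold change in OVA+PM2.5 against Naive. The alveolar macrophage receptor Marco was listed at 0 in OVA+PM2.5 replicate 1, where the sum of the list was above the Naive range. The part of macrophage number in Mmp12 was not tested.

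Mmp2, a gelatinase of mesenchymal cells, had 18.3, 18.6 and 3.30 FPKM in OVA+PM2.5, against 13.3, 9.33 and 22.8 FPKM in OVA and 25.6, 28.1 and 27.9 FPKM in Naive. Both treated groups lay below Naive, with log2 fold changes of -1.32 (SE 0.60, adjusted p 0.153) in OVA+PM2.5 and -0.92 (SE 0.60, adjusted p 0.579) in OVA. Mmp14, the membrane-bound activator of MMP2, had 33.5, 10.7 and 5.77 FPKM in OVA+PM2.5, against 11.2, 12.8 and 18.4 FPKM in OVA and 13.2, 12.9 and 9.996 FPKM in Naive, and its groups overlapped.

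Timp2, the inhibitor that also serves MMP2 activation, had the highest mean FPKM of the enzymes and inhibitors, with 97.4, 116 and 29.9 FPKM in OVA+PM2.5, 67.7, 129 and 134 FPKM in OVA and 143, 167 and 169 FPKM in Naive. Both treated groups lay wholly below Naive, and the log2 fold change in OVA+PM2.5 against Naive was -1.18 (SE 0.51, adjusted p 0.135). Timp1, the inhibitor most often induced in inflammation, was at 2.41 to 4.94 FPKM in OVA+PM2.5, 1.89 to 8.65 FPKM in OVA and 2.99 to 4.01 FPKM in Naive. Timp3, the matrix-bound inhibitor, was at 5.58 to 21.8 FPKM in OVA+PM2.5, 10.9 to 51.4 FPKM in OVA and 10.1 to 21.6 FPKM in Naive. The ratio of Mmp12 to Timp1 was 16.1, 0.498 and 2.14 in OVA+PM2.5, 0.331, 0.248 and 0.215 in OVA and 0.178, 0.0940 and 0.333 in Naive, so all OVA+PM2.5 libraries exceeded the other 6. The ratio of Mmp2 to Timp2 did not separate the groups, at 0.110 to 0.187 in OVA+PM2.5, 0.0725 to 0.196 in OVA and 0.165 to 0.178 in Naive.

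Of the TGF-beta ligands, Tgfb1 is made by leukocytes, platelets and many other cells. It had 5.80, 13.3 and 9.19 FPKM in OVA+PM2.5, against 8.37, 10.3 and 11 FPKM in OVA and 25.2, 17.7 and 22.0 FPKM in Naive. The 6 treated libraries lay wholly below Naive and overlapped each other. The means were 9.41 ± 3.74 FPKM in OVA+PM2.5, 9.90 ± 1.37 FPKM in OVA and 21.6 ± 3.76 FPKM in Naive (SD, n = 3 each). Tgfb1 had a log2 fold change of -1.22 (SE 0.30, adjusted p 0.0467) in OVA+PM2.5 against Naive. It was -1.08 (SE 0.30, adjusted p 0.271) in OVA against Naive, where it passed in the 6-library fit (adjusted p 0.0249). Between OVA+PM2.5 and OVA it was -0.13 (SE 0.30, adjusted p 0.798).

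Tgfb2, a ligand of epithelium and mesenchyme, had 3.02, 2.81 and 0.503 FPKM in OVA+PM2.5, against 3.71, 3.40 and 3.77 FPKM in OVA and 4.49, 5.86 and 3.82 FPKM in Naive. The 3 groups did not overlap, in the order OVA+PM2.5, OVA and Naive from low to high, but OVA replicate 3 and Naive replicate 3 differed by little. In OVA+PM2.5 set against Naive, Tgfb2 had a log2 fold change of -1.18 (SE 0.44, adjusted p 0.0991). Tgfb3 had 14.9, 15.7 and 4.04 FPKM in OVA+PM2.5, against 18.1, 12.3 and 13.7 FPKM in OVA and 18.7, 21.6 and 14.1 FPKM in Naive, and no comparison passed.

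By role, the groups were uneven. In OVA+PM2.5 against Naive, 5 of 6 fibrillar collagens, 6 of 7 basement membrane collagens, 7 of 8 other collagens, 6 of 11 glycoproteins, proteoglycans and elastic fibre genes, 6 of 9 enzymes and inhibitors and 3 of 3 TGF-beta ligands had a negative log2 fold change, and signs turned for Timp1, Mmp14 and Col8a1 with common sum scaling and for Timp3 and Col14a1 with median-ratio scaling. The median over all genes tested was negative as well, so these counts alone do not set the matrix genes apart. By role the median was -0.97 for fibrillar, -1.63 for basement membrane and -0.92 for other collagens, -0.83 for glycoproteins, proteoglycans and elastic fibre genes, -0.82 for enzymes and inhibitors and -1.18 for TGF-beta ligands, next to -0.33 for all genes tested. In OVA against Naive the medians were -0.82, -0.43, -0.72, -0.31, 0.20 and -0.32 in that order of roles, next to -0.11 for all genes, and the median of enzymes and inhibitors was -0.18 with common sum scaling. For OVA+PM2.5 against OVA they were -0.03, -0.72, -0.21, -0.52, -0.59 and -0.52, next to -0.23, and the median of fibrillar collagens was 0.18 with common sum and 0.20 with median-ratio scaling. The 3 comparisons share libraries, so these medians are not independent of each other.

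Across the 44 genes, Pearson's r of log2 values between pairs of Naive libraries was 0.980 to 0.986 and between pairs of OVA libraries 0.883 to 0.947. Between pairs of OVA+PM2.5 libraries it was 0.736 to 0.858. OVA+PM2.5 replicate 1 correlated with the OVA and Naive libraries at only 0.477 to 0.601, replicate 3 at 0.657 to 0.767 and replicate 2 at 0.793 to 0.890. These values run across genes, which are not independent replicates, and describe the libraries.

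Genes that make, process or receive matrix, taken from lists beside the 44, were also lower in OVA+PM2.5 than in Naive lungs where they passed, in a comparison where 5.59% of all genes were called lower and 1.53% higher. Of 24 tested collagen biosynthesis genes 4 fell (16.7%) and 0 rose. They included the collagen chaperone Serpinh1 (log2 fold change -1.49, SE 0.36, adjusted p 0.0451, limma), with 8.42, 18.1 and 6.02 FPKM in OVA+PM2.5, against 28.6, 29.9 and 26.8 FPKM in Naive. The procollagen C-proteinase enhancers Pcolce and Pcolce2 (-1.80 and -3.41) and the procollagen protease Adamts14 (-1.10) were the others. Of 14 matricellular genes 5 fell (35.7%), led by the growth-factor-like Ccn1 with 4.81, 26.8 and 7.70 FPKM in OVA+PM2.5, against 121, 106 and 96.1 FPKM in Naive (log2 fold change -3.35, SE 0.58, adjusted p 0.0293). Among 18 further elastic fibre and proteoglycan genes 3 fell (Mfap2, Efemp1 and Ltbp1), among 16 laminin and basement membrane genes 2 (Agrn and Npnt), and among 9 collagen receptors 2 (Ddr2 and Itga2). The matrix protease Adamts1, from a list of 20 further proteases and inhibitors, fell as well (log2 fold change -2.32, SE 0.46, adjusted p 0.0348). Of 20 TGF-beta receptor and signalling genes 1 fell, Nrros (log2 fold change -1.26, SE 0.23, adjusted p 0.0318), which encodes a protein that presents latent TGF-beta on myeloid cells, and that count is near the share of all genes. Of 5 tested further collagens 0 passed, and at an unadjusted p under 0.05 they counted 1 lower and 0 higher. None of the genes of these 8 lists passed as higher in the 9-library fit, and the limma fit of the 6 OVA+PM2.5 and Naive libraries called 0 of them, as it called 0 of all genes. Of the 126 genes tested in the lists, 0 passed in OVA+PM2.5 against OVA by limma on 9 libraries, and at an unadjusted p under 0.05 they counted 6 higher and 31 lower (6.64% and 20.3% of all genes). In OVA against Naive 0 passed, with 4 higher and 20 lower at an unadjusted p under 0.05 (4.41% and 6.94% of all genes). The limma fit of the 6 OVA and Naive libraries called 27 of the 126 lower (21.4%, against 3.91% of all genes) and 3 higher (2.38%, against 2.98%). Of the 27, collagen biosynthesis held 9, matricellular genes 5 and further elastic fibre and proteoglycan genes 4.

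Fibroblast and mesenchyme markers were low in the same libraries. Their 14 genes summed to 119, 817 and 93.1 FPKM in OVA+PM2.5, against 745, 1209 and 662 FPKM in OVA and 2087, 1946 and 2395 FPKM in Naive, and 8 of 14 fell in OVA+PM2.5 against Naive in the 9-library fit (57.1%, against 5.59% of all genes), among them the alveolar fibroblast transcription factors Meox2 (log2 fold change -1.45, adjusted p 0.0248) and Tcf21 (-4.09, adjusted p 0.0482). The fit of the 6 compared libraries called 0 of the 14 by limma, as of all genes, with 633 higher and 2961 lower of all genes at an unadjusted p under 0.05. In OVA against Naive the 9-library fit called 0 of the 14. The limma fit of the 6 OVA and Naive libraries called 7 of them lower (50%, against 3.91% of all genes) and 0 higher. Tcf21 had 0.514, 20.5 and 0.646 FPKM in OVA+PM2.5, against 10.5, 26.6 and 14.0 FPKM in OVA and 44.5, 38.2 and 68.9 FPKM in Naive. The 9 lung endothelium markers summed to 61.0, 722 and 116 FPKM in OVA+PM2.5, against 251 to 665 FPKM in OVA and 747 to 1132 FPKM in Naive. In OVA+PM2.5 replicate 1 these 2 sums were among the lowest while Col1a1, Col3a1 and Col6a1 were within the Naive range or just below it, and that library held 14494 summed FPKM of skeletal muscle genes. Whether its collagen transcripts came from lung or from muscle cannot be told apart.

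**Figure D5:**
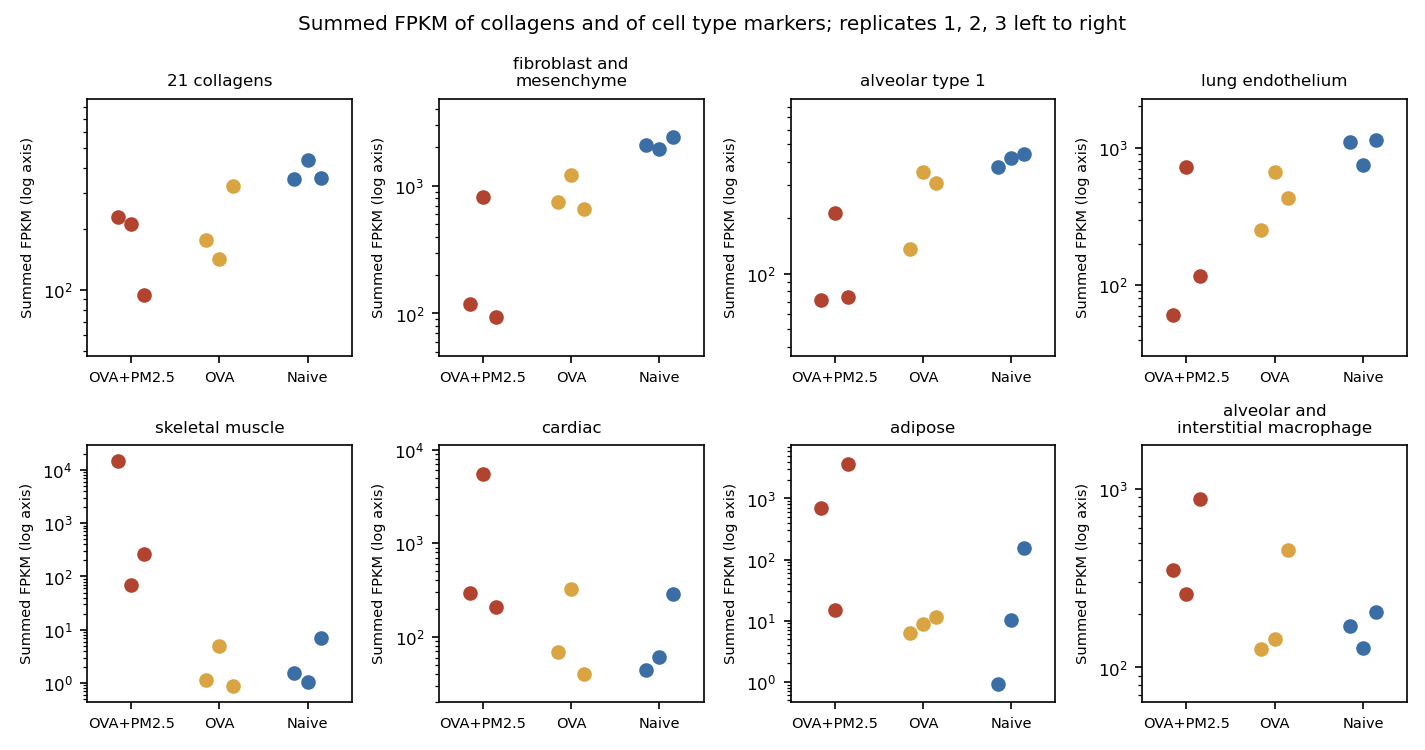
Points are summed FPKM per library on a log axis for the 21 collagens and for marker lists of 7 cell types or tissues, in OVA+PM2.5, OVA and Naive, with replicates 1, 2 and 3 from left to right. Skeletal muscle, cardiac and adipose sums peak in OVA+PM2.5 replicates 1, 2 and 3 in turn, and the fibroblast, alveolar type 1 and endothelium sums are lowest in OVA+PM2.5 replicates 1 and 3.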

How the data were processed

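Lung poly(A) RNA of 9 mice (3 per group) was prepared with Trizol and NEBNext Ultra, per the labels' protocols. The authors deposited FPKM per gene. Reads were set against GRCm39, per the submitters' processing notes, while the aligner and the counting tool were not given in the sources used here. Of 21884 genes, 13078 had a symbol in the file, 8728 were named from a reference by Ensembl ID, among them 14 of the 44 matrix genes, and 78 had none. The reference was of another build, so it served for names, promoter windows and exon lengths only.

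Genes with FPKM of at least 0.5 in at least 3 of 9 libraries (12982) were tested as log2(FPKM + 0.5) with limma (3.58.1, under R 4.3.3) by lmFit, contrasts.fit and eBayes with a trend, in 1 fit of 9 libraries, with Benjamini-Hochberg adjustment per comparison over all genes and a threshold of 0.05. Fold changes on this scale understate those of low genes. The smallest p of an exact permutation test of 3 libraries against 3 is 0.1. The script was tested on simulated data.

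From the steps between FPKM values, whole fragments were recovered for 17298 of 17298 genes detected in 2 or more libraries (100%). The tolerance was 0.001, or 0.01 for genes without a match at 0.001. Many multiples were tried, so a match was nearly certain for genes detected in few libraries, and the 100% does not check their counts. A voom fit on the recovered fragments was an added alternative. The gene lengths these imply were 1.00 to 5.95 times the merged exons of the GRCm38 annotation for the matrix genes, with a median of 1.65, so FPKM levels of different genes depend on the authors' gene models. Fn1 (5.95 times) and Sparc (3.05 times) have low FPKM for their fragments, and changes of a gene between libraries are not affected.

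The groups carry the same replicate numbers. Between libraries of equal number the deviations from group means had r of -0.171 to 0.278, over 0.1 in 3 of 9 pairs, and the numbers were therefore not used as pairs. The matrix genes, the other lists and the rule for naming genes were chosen with earlier results of these data known. That rule gave single-library values to genes past the threshold, to the 2 smallest p per role and comparison and to the highest mean FPKM per role, and named up to 4 genes of each other list past the threshold. One gene that it selected is not reported here. Python 3.11.15 with pandas 2.3.3 and numpy 2.4.6 served for the rest, and figures were drawn with matplotlib 3.10.9.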

Additional observations from a re-analysis of the deposited data

How the results depend on the processing

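Brackets give the counts of all genes called higher and lower in the same fit. In OVA+PM2.5 against Naive the count of 5 matrix genes (198 and 726) became 2 with a pseudocount of 0.1 (145 and 343). It was also 2 with voom on recovered fragments (107 and 362). Without a filter on low values it was 1 (55 and 102 of 18274 genes), as with median-ratio scaling (165 and 102). With 1 weight per group it was 3, 1 higher and 2 lower (147 and 326). With common sum scaling it was 10, 1 higher and 9 lower (204 and 1441). The fit of 6 libraries gave 0 (0 and 0). With 1 library left out the count of matrix genes was 0 to 19, at 19 without OVA+PM2.5 replicate 2 (695 and 3553). Without OVA+PM2.5 replicate 3 the count was 3, with Dcn and Lum higher and Sparc lower (240 and 178). It was 0 without OVA+PM2.5 replicate 1 (77 and 66), OVA replicate 2 (15 and 23) or any 1 Naive library (0 and 0). With OVA+PM2.5 replicates 1 and 3 left out the median log2 fold change of the matrix genes was -0.47, against -0.17 over all genes. The 5 called genes were then nearer no change, at -1.65 for Sparc, -1.30 for Postn, -0.67 for Tgfb1, -0.64 for Col13a1 and -0.46 for Col16a1. Signs of 5 other matrix genes differed there. With the replicate number as a replicate block the count was 0 (15 and 35), and no other comparison had a call with the block (0 and 0). In OVA+PM2.5 against OVA the count of 0 (25 and 3) became 1, Lum, with common sum (94 and 4) and with median-ratio scaling (91 and 6). With 1 library left out it was 0 to 14, at 14 without OVA+PM2.5 replicate 2 (634 and 2661). In OVA against Naive the count of 0 (0 and 2) became 6 in the fit of 6 libraries (387 and 508). It was also 6 with 1 weight per group (342 and 475), the weights being 0.347 for OVA+PM2.5, 1.34 for OVA and 2.15 for Naive. The fit of 6 libraries gave 0 to 5 with 1 of them left out, at 0 without Naive replicate 3 (4 and 17). In both of these comparisons voom gave 0. The cause was not tested. Fits without 2 OVA+PM2.5 libraries, voom and fits of 6 libraries with 1 left out were added after the data had been seen, and a lone library is assumed to vary like the other groups. No sign reversed among 181 alternative values of 9 fold changes (of Sparc, Postn, Tgfb1, Col13a1, Col16a1, Lum and Col5a3), chosen as called or of smallest p in a comparison. Many of these values could not reverse. A change of filter, the fit of 6 libraries, the weights, the block and leaving out a library of the third group return the same fold change. Over the 44 genes in OVA+PM2.5 against OVA, signs differed for 12 without OVA+PM2.5 replicate 3, 9 without OVA replicate 3 and 16 with OVA+PM2.5 replicates 1 and 3 left out. Signs of 6, 3 and 4 genes that did not pass differed with common sum scaling in OVA+PM2.5 against OVA, OVA+PM2.5 against Naive and OVA against Naive. Depth limited Col13a1, with 4 fragments in 1 library.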
